A study of Mus musculus with 2 samples.

Results

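Cathepsins and legumain are the endolysosomal proteases that cut proteins taken up or turned over inside a cell, and 10 of their genes were followed by name across a single-cell RNA data set of mouse tumors: Ctsb, Ctsc, Ctsd, Ctsh, Ctsk, Ctsl, Ctss, Ctsw, Ctsz and Lgmn. All 10 were found among the 16416 genes of the deposited expression table, and they were read in each of the 22 deposited cell clusters and in both libraries. They were picked by gene name.

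The cells came from tumors engrafted in mice whose heat shock factor 1 carries alanine in place of serines 303 and 307 (S303/7A), and from tumors engrafted in wild-type (WT) controls. Heat shock factor 1 turns on chaperone genes when proteins misfold. Tumors were digested with enzymes, live CD45+ and CD45- cells were sorted and mixed 5 to 1, and each genotype gave 1 library of 3′ end droplet sequencing (10x Genomics, version 2 chemistry), with 4802 cells in the S303/7A library and 6654 in the WT library. Tumors of 4 mice were pooled per the design text, which does not say whether per genotype. Single animals cannot be told apart, the difference between genotypes has no replicate check, and it cannot be told apart from a difference between 2 libraries. The mutation is given for the mice, the tumor line is not named in the labels, and age and sex are not given.

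A cathepsin is made as an inactive precursor, carried to the lysosome by mannose phosphate receptors and activated in acid. Ctsb, Ctsl, Ctss and Ctsk are cysteine endopeptidases, Ctsc, Ctsh and Ctsz trim protein ends, Ctsd is an aspartic protease, and Lgmn (legumain) cuts after asparagine. In macrophages and dendritic cells these enzymes process antigen and the invariant chain of class II molecules, Ctsw is known from cytotoxic lymphocytes, and Ctsk is best known from bone-resorbing osteoclasts.

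Levels are the mean over cells of UMIs per 10000 UMIs of the cell (CP10K), where a UMI marks 1 captured RNA molecule. Because a 3′ library gives 1 tag per molecule, levels of different genes were set side by side without a length correction. Ratios are S303/7A over WT, given as the log2 ratio of mean CP10K with 0.1 CP10K added to each (this makes ratios of low genes look smaller), and as the UMI ratio, that of summed UMIs over the class total, with an exact conditional (Clopper-Pearson) 95% interval. All intervals cover counting error only, and since cells are not replicates no p-value is given. A gene counted as measured in a class where 1 library had at least 0.1 CP10K, and as past the fold where the log2 ratio reached that of 1.5-fold in either direction.

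The libraries differed in depth, with a median of 13028 UMIs per cell in S303/7A and 7698 in WT, and 48 cell barcodes occurred in both libraries. The gap was widest in macrophages (MF), at 14044 UMIs per cell in S303/7A and 5388 in WT, and narrow in tumor cells, at 28127 in S303/7A and 25531 in WT. Of the 11 deposited classes, 8 held at least 50 cells in each library and were compared: MF, monocytes (Mo), dendritic cells (DC), natural killer cells (NK), CD8T, Treg, Stromal and Tumor. Marker lists did not match the labels everywhere. Macrophage cluster C05 had 5 T cell markers at a summed 11.05 CP10K in S303/7A and 12.1 CP10K in WT. The class labelled plasmacytoid dendritic cells (pDC) had its 3 own markers at 62.0 CP10K in S303/7A and 72.1 CP10K in WT. In it 4 monocyte markers summed to 76.4 CP10K in S303/7A and 113 CP10K in WT, with 1 of them at 0 in WT. The same 4 summed to 24.1 (S303/7A) and 34.8 CP10K (WT) in CD8T cells. In the pDC class 10 macrophage markers summed to 70.5 CP10K in S303/7A and 33.2 CP10K in WT. The source of this marker RNA in pDC was not tested. The granulocyte class joined a neutrophil-like cluster (C18) and a mast cell-like cluster (C22). The class labelled Stromal, which is the single cluster C15, had a summed level of 4 matrix genes of 12.1 CP10K in S303/7A and 16.3 CP10K in WT, below the Tumor class at 32.8 (S303/7A) and 31.5 CP10K (WT).

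The members lie on 8 chromosomes of GRCm38, the build named in the submitters' processing notes, in GENCODE M21 coordinates. Ctsk (chromosome 3, 95499256 to 95509362, plus strand) and Ctss (chromosome 3, 95526786 to 95556403, plus strand) are neighbours with 17423 bases between them. Ctsc (chromosome 7, 88278085 to 88310888, plus strand) and Ctsd (chromosome 7, 142375911 to 142388038, minus strand) share a chromosome but lie far apart. The others are Ctsb (chromosome 14, 63122462 to 63145923, plus), Ctsh (chromosome 9, 90054152 to 90076089, plus), Ctsl (chromosome 13, 64359337 to 64370890, minus), Ctsw (chromosome 19, 5465043 to 5468507, minus), Ctsz (chromosome 2, 174427493 to 174439039, minus) and Lgmn (chromosome 12, 102394084 to 102439813, minus). Ctsb overlaps Fdft1, Ctsw overlaps Fibp and Ctsz overlaps Nelfcd on the opposite strand, and Ctsd overlaps the gene model Gm49369 on its own strand. Whether the counting used strand is not given in the sources used here, so reads in the overlaps on opposite strands may have been assigned either way. Strand cannot separate Gm49369 (142371096 to 142382667) from Ctsd. This overlap covers the 3′ end of Ctsd, where a 3′ library reads, and its part in the Ctsd counts was not tested.

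Promoters of 4 members are shown because the results turn on these genes. Ctsd and Ctsc differed between libraries in opposite directions in macrophages. The neighbours Ctss and Ctsk were highest in different clusters. Each is the 250 bases before a RefSeq start (GRCm38.p6), 5′ to 3′ on the gene's strand, with matches to CACGTG (the E-box core read by TFEB and its relatives) in capitals.
Ctsd (chr7:142387828-142388077, minus strand): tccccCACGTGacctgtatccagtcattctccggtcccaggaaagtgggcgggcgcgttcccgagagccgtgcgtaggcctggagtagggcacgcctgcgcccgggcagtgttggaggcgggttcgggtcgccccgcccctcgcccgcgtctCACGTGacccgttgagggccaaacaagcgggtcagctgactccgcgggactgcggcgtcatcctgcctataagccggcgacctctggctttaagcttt
Ctsc (chr7:88277835-88278084, plus strand): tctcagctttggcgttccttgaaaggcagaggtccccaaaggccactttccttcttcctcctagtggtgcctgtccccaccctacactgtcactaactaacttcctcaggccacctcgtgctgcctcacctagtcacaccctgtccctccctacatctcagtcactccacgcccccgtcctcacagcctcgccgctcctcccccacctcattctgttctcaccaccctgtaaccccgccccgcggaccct
Ctss (chr3:95526536-95526785, plus strand): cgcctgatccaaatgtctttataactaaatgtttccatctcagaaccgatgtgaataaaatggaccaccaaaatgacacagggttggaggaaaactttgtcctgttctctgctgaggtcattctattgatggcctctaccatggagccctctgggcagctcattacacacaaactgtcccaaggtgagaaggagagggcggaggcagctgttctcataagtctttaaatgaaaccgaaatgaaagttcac
Ctsk (chr3:95498960-95499209, plus strand): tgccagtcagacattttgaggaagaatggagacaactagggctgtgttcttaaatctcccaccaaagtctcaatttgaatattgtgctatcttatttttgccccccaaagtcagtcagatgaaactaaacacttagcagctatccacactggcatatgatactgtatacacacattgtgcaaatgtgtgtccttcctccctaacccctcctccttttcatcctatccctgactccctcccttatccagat
The Ctsd window held CACGTG at 245 and at 98 bases before the start, and the windows of Ctsc, Ctss and Ctsk did not hold it. Over 32851 promoters of the same length, searched on both strands, 6.02% held CACGTG, and TGACTCA (the AP-1 motif), held by 4.46% of them, was found in no window of a member. The RefSeq start of Ctsd lies 211 bases inside the GENCODE start, so its proximal match lies within the GENCODE gene. Of the members, 7 matched the promoter table with 8 windows, and CACGTG was also found in the Ctsl window and in 1 of the 2 Lgmn windows. The RefSeq starts of these windows lie 370 (Ctsl) and 721 bases (Lgmn) inside the GENCODE starts, so both windows lie within the GENCODE genes. The Lgmn window nearer the GENCODE start did not hold it. Ctsb, Ctsh and Ctsw have no entry in the table. A match describes letters in these windows and is not a measured binding site.

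The members divided the cell types among themselves. Myeloid cells carried the most, with a summed level of the 10 members of 88.0 CP10K in S303/7A and 92.3 CP10K in WT macrophages, 86.7 (S303/7A) and 81.9 CP10K (WT) in monocytes, and 74.0 (S303/7A) and 76.5 CP10K (WT) in pDC. Tumor cells had 20.9 CP10K in S303/7A and 19.5 CP10K in WT, and NK cells had 18.96 (S303/7A) and 20.5 CP10K (WT). The sum was thus similar in lymphocytes and tumor cells, but it was made of different genes.

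**Figure D1:**
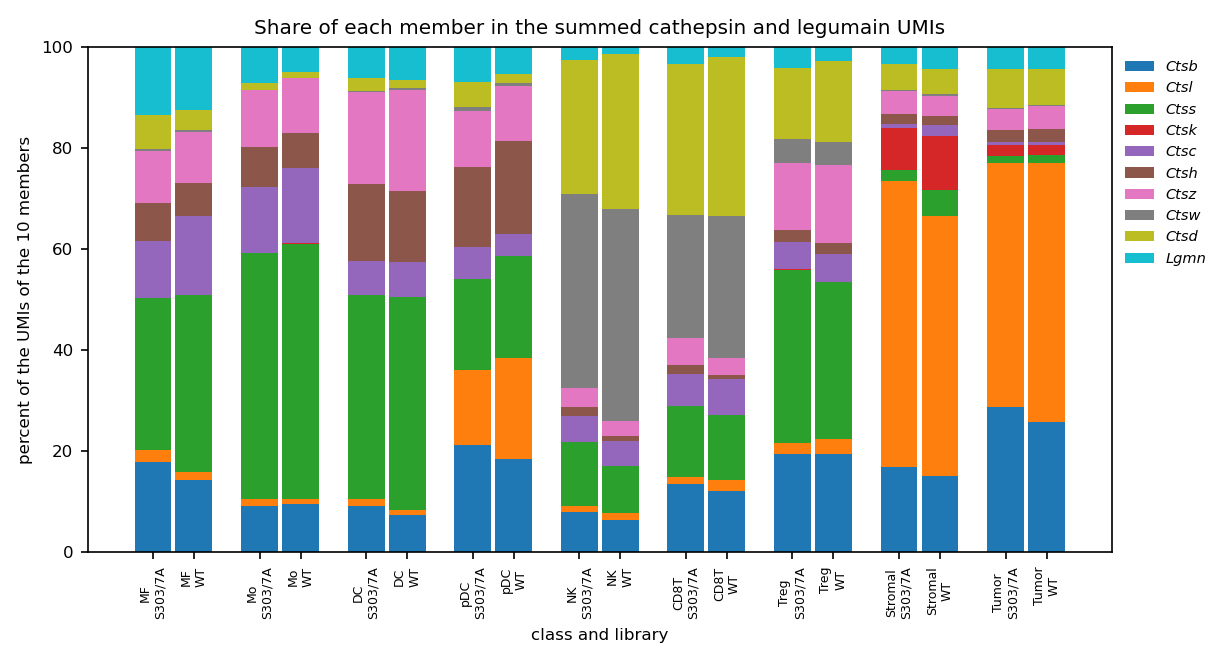
Percent of the summed UMIs of the 10 members taken by each member (vertical axis), for 9 classes with the S303/7A library left of the WT library. Ctss filled 48.9% in S303/7A and 50.5% in WT monocytes, Ctsl filled 48.3% in S303/7A and 51.3% in WT tumor cells, and Ctsw and Ctsd filled most of the NK bars.

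Among the endopeptidases, Ctss, which trims the invariant chain and stays active at neutral pH, was the most abundant member in monocytes and macrophages. Its level was 42.7 CP10K in S303/7A and 41.5 CP10K in WT monocytes, 26.1 (S303/7A) and 32.6 CP10K (WT) in macrophages, and 13.6 (S303/7A) and 14.7 CP10K (WT) in dendritic cells. Within macrophages cluster C02, the one with the most monocyte marker RNA, stood above the other 4 clusters, at 37.5 CP10K in S303/7A and 45.2 CP10K in WT. Tregs held 6.82 CP10K in S303/7A and 6.25 CP10K in WT, against 2.50 (S303/7A) and 2.06 CP10K (WT) in CD8T cells. Tumor cells were low, at 0.328 CP10K in S303/7A and 0.303 CP10K in WT.

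Ctsl, a broadly expressed endopeptidase, had nearly the opposite map. It was highest in tumor cluster C14, at 17.1 CP10K in S303/7A and 17.6 CP10K in WT, followed by pDC at 14.8 (S303/7A) and 17.2 CP10K (WT) and by the Stromal class at 10.1 (S303/7A) and 15.03 CP10K (WT). The first 2 of these differed by less than the libraries of the second did. The whole Tumor class had 9.91 CP10K in S303/7A and 9.69 CP10K in WT. Macrophages had only 2.03 CP10K in S303/7A and 1.59 CP10K in WT, and NK cells 0.246 (S303/7A) and 0.314 CP10K (WT).

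Ctsb, an endopeptidase that can also trim ends, bridged both sets. It reached 25.8 CP10K in S303/7A and 22.2 CP10K in WT in macrophage cluster C03, 15.04 (S303/7A) and 14.6 CP10K (WT) in pDC, and 5.9998 (S303/7A) and 5.18 CP10K (WT) in tumor cells. Ctsk, the osteoclast collagenase, was low everywhere, with its highest level in the Stromal class at 1.39 CP10K in S303/7A and 2.57 CP10K in WT, and 0.4995 (S303/7A) and 0.422 CP10K (WT) in tumor cells. In tumor cells 63.4% of S303/7A cells and 53.6% of WT cells had a Ctsk UMI, and after thinning every cell to 1000 UMIs these shares were 3.96% in S303/7A and 3.99% in WT.

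The end-trimming enzymes were myeloid. Ctsc is the dipeptidyl peptidase that activates the granzymes and other granule proteases. Its level was highest in macrophage cluster C03, at 12.5 CP10K in S303/7A and 18.5 CP10K in WT. In monocytes Ctsc stood at 11.03 (S303/7A) and 12.2 CP10K (WT). NK cells, which need it to make active granzymes, had 1.04 CP10K in S303/7A and 0.983 CP10K in WT, about the level of CD8T cells at 1.07 (S303/7A) and 1.04 CP10K (WT). Tumor cells had 0.114 (S303/7A) and 0.124 CP10K (WT). Ctsh was highest in pDC, at 13.1 CP10K in S303/7A and 15.2 CP10K in WT, ahead of monocytes at 6.94 (S303/7A) and 5.53 CP10K (WT) and of macrophages at 6.29 (S303/7A) and 5.91 CP10K (WT). B cells, with only 14 S303/7A and 47 WT cells, had 4.53 (S303/7A) and 4.58 CP10K (WT). Ctsz was similar in mononuclear myeloid classes, at 9.53 (S303/7A) and 8.81 CP10K (WT) in monocytes, 8.56 (S303/7A) and 8.59 CP10K (WT) in macrophages, 8.99 (S303/7A) and 7.96 CP10K (WT) in pDC and 6.37 (S303/7A) and 6.71 CP10K (WT) in dendritic cells. It was lower in the neutrophil-like cluster C18, at 5.69 CP10K in S303/7A and 3.18 CP10K in WT.

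Ctsw marked cytotoxic lymphocytes. NK cells had 7.16 CP10K in S303/7A and 8.60 CP10K in WT, non-cycling CD8T cells (cluster C06) had 4.82 (S303/7A) and 5.39 CP10K (WT), cycling CD8T cells (C11) had 3.53 (S303/7A) and 3.41 CP10K (WT), and Tregs had 0.944 (S303/7A) and 1.29 CP10K (WT). After thinning to 1000 UMIs, 45.1% of S303/7A and 52.3% of WT NK cells had a Ctsw UMI. B cells, taken as a class that should lack the gene, had a Ctsw UMI in 0 of 14 S303/7A cells and in 6.38% of 47 WT cells. For the 14 cells a floor of 3 cells, which is not a confidence limit, is a share of 21.4%. Median depths in B cells were 2246 (S303/7A) and 1961 UMIs (WT), against 5864 (S303/7A) and 3621 UMIs (WT) in NK cells. Unthinned NK shares were 91.2% in S303/7A and 86.6% in WT.

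Ctsd, the aspartic protease of lysosomes, was spread over myeloid cells and lymphocytes. The neutrophil-like cluster C18 had 8.72 CP10K in S303/7A and 6.02 CP10K in WT, macrophage clusters C03 and C09 had 9.38 (S303/7A) and 5.26 CP10K (WT) and 9.09 (S303/7A) and 4.91 CP10K (WT), and the mast cell-like cluster C22 had 7.00 CP10K in 25 S303/7A cells and 8.31 CP10K in 9 WT cells. Lymphocytes had 5.25 CP10K in S303/7A and 6.27 CP10K in WT NK cells and 5.28 (S303/7A) and 5.08 CP10K (WT) in CD8T cells. Monocytes, so rich in Ctss, had only 1.34 CP10K in S303/7A and 0.905 CP10K in WT, and dendritic cells 0.734 (S303/7A) and 0.496 CP10K (WT). The top 3 clusters differed from each other by less than their libraries did.

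Lgmn, the asparaginyl endopeptidase, was the most macrophage-centred of the set. Cluster C09 led with 21.995 CP10K in S303/7A and 20.3 CP10K in WT, C03 had 18.1 CP10K in S303/7A and 17.9 CP10K in WT, and C13 followed with 12.6 CP10K in S303/7A and 15.1 CP10K in WT. Monocytes had 5.89 CP10K in S303/7A and 4.04 CP10K in WT, and NK cells 0.520 (S303/7A) and 0.272 CP10K (WT).

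**Figure D2:**
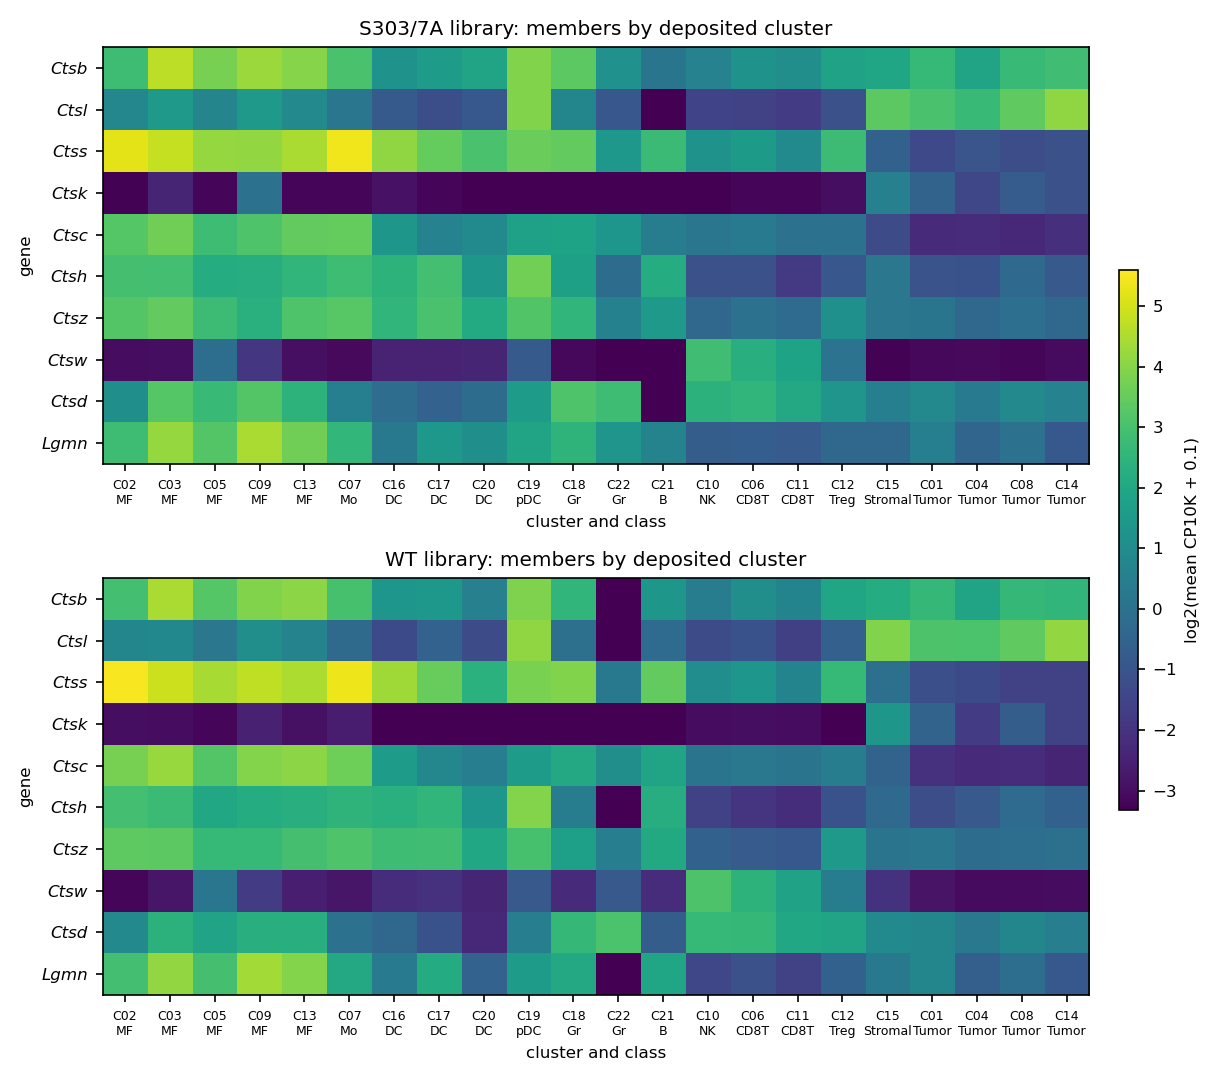
Mean level of each member, as log2(CP10K + 0.1) in color, in the 22 deposited clusters ordered by class, with the S303/7A library above and the WT library below. Ctss, Ctsc, Ctsz and Lgmn fill the macrophage and monocyte columns, Ctsl and Ctsk the Stromal and Tumor columns, and Ctsw the NK and CD8T columns. B (14 S303/7A cells) and C22 (9 WT cells) are the thinnest columns.

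Likeness between genes was described by Pearson's r of log2(level + 0.1) over the 22 clusters, where the level is the equal-weight mean of both libraries, or that of the 1 library with at least 20 cells (WT in C21, S303/7A in C22), so the points share the libraries and their depth. Ctsc and Ctss ran most closely together of all pairs of members (r = 0.95), as did Ctsh and Ctsz (r = 0.95). Ctsk and Ctss, the neighbours on chromosome 3, had the lowest value of all pairs (r = -0.59). Ctsl was closest to Ctsk among the members (r = 0.71). The Ctsk levels behind these values, and behind the genes most like Ctsk below, rest partly on single cells. In C09 all 33 Ctsk UMIs of S303/7A came from 1 cell, and in the Stromal class 1 S303/7A cell gave 197 of 213 Ctsk UMIs.

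Among 10892 other genes, those most like Ctsc were C1qb, C1qa and Lyz2 (r = 0.97 for each), which encode complement subunits and lysozyme. Ctss was most like Aif1, Ly86 and Cyba (r = 0.96, 0.96 and 0.95), and Ly86 was also among the 3 genes most like Ctsh and Ctsz. Lgmn was most like Pla2g15, a lysosomal phospholipase, and the macrophage genes Adgre1 and Csf1r (r = 0.94, 0.93 and 0.92). Ctsw was most like Klrc1, the perforin gene Prf1 and Sh2d1a (r = 0.97, 0.96 and 0.96). Ctsd had the loosest match, with Hgsnat, Tmed8 and Ppip5k2 (r = 0.77, 0.77 and 0.76). The closest genes to Ctsb were Cltc, P2rx7 and Gab1 (r = 0.89, 0.88 and 0.88), to Ctsl Evi5, Zcchc24 and Fndc3b (r = 0.93, 0.91 and 0.91), and to Ctsk Bdh2, Prpf40b and S100a16 (r = 0.92 for each). Pld4 and Plekho1 completed the list of Ctsh (r = 0.93 and 0.92), and Csf2ra and Pld4 that of Ctsz (r = 0.94 for each).

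In macrophages, the comparison of S303/7A with WT set the members against each other. Ctsd was 6.20 CP10K in S303/7A and 3.61 CP10K in WT (log2 ratio 0.76, UMI ratio 1.64, interval 1.58 to 1.70). Ctsc was 9.76 CP10K in S303/7A and 14.3 CP10K in WT (log2 ratio -0.55, UMI ratio 0.684, interval 0.671 to 0.697). Ctsd and Ctsk were past 1.5-fold among the 10 measured members, both higher. Of 7327 genes measured in macrophages, 4.48% were past that fold in either direction and 1.68% in the higher direction. Ctsk counted as measured only through S303/7A (0.120 CP10K, against 0.0322 in WT), where 1 cell gave 81 and another 33 of its 141 UMIs. Without the 2 cells of most Ctsk UMIs in each library it was below 0.1 CP10K in both, so the count of 2 depends on these cells. Of the summed UMIs of the 10 members, Ctsd made 6.68% in S303/7A and 3.86% in WT, and Ctsc made 11.4% in S303/7A and 15.7% in WT.

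The remaining members differed less. Ctss was 26.1 CP10K in S303/7A and 32.6 CP10K in WT (log2 ratio -0.32), Ctsb 15.9 (S303/7A) and 12.8 CP10K (WT) (0.32), and Ctsl 2.03 (S303/7A) and 1.59 CP10K (WT) (0.33). Ctsh, Ctsz and Lgmn were close to even, with log2 ratios of 0.09, 0.00 and 0.01, the last from 12.7 CP10K in S303/7A and 12.6 CP10K in WT. Over the 10 members the median log2 ratio was 0.05, beside 0.02 over all measured genes.

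The distribution over single macrophages showed the same for Ctsd and Ctsc. Ctsd had a median of 3.87 CP10K in S303/7A cells (quartiles 1.51 and 8.27) and 2.05 CP10K in WT cells (quartiles 0 and 4.87). Ctsc had a median of 8.73 CP10K in S303/7A cells (quartiles 5.46 and 12.9) and 12.7 CP10K in WT cells (quartiles 7.60 and 19.2). The quartile ranges overlapped for both genes.

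Depth differs between the libraries, and it was compared in macrophages of 5000 to 15000 UMIs, a range chosen after seeing the data. In these 963 S303/7A cells (median 11382 UMIs) and 1055 WT cells (median 7489 UMIs), Ctsd was 6.45 CP10K in S303/7A and 3.36 CP10K in WT (log2 ratio 0.92), and Ctsc was 10.4 (S303/7A) and 14.4 CP10K (WT) (-0.46). Ctss was 30.3 CP10K in S303/7A and 32.1 CP10K in WT in the same cells (log2 ratio -0.08, against -0.32 over all macrophages), and Ctsl was 2.14 (S303/7A) and 1.43 CP10K (WT) (0.55). Ctsw, even over all macrophages, was 0.121 CP10K in S303/7A and 0.301 CP10K in WT in these cells (-0.86), past 1.5-fold.

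**Figure D3:**
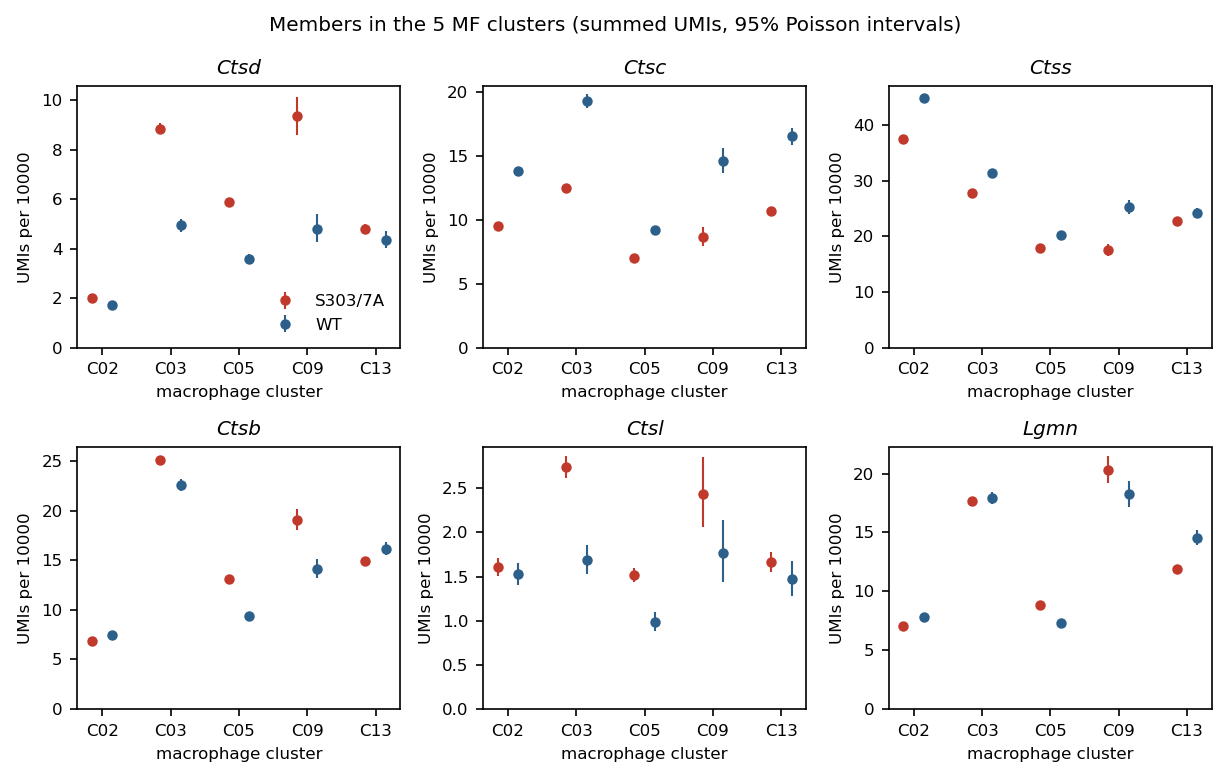
Summed UMIs per 10000 (vertical axis) of 6 members in the 5 macrophage clusters, S303/7A (red) left of WT (blue), with exact 95% Poisson intervals that cover counting error only. Ctsc lies lower in S303/7A in all 5 clusters, and Ctsd lies far apart in C03, C05 and C09 but close in C02 and C13.

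Ctsc was lower in S303/7A in each of the 5 macrophage clusters. Its log2 ratio was -0.52 in C02 (9.49 CP10K in S303/7A, 13.7 in WT), -0.57 in C03 (12.5 in S303/7A, 18.5 in WT), -0.39 in C05 (7.04 in S303/7A, 9.25 in WT), -0.79 in C09 (8.78 in S303/7A, 15.3 in WT) and -0.59 in C13 (10.9 in S303/7A, 16.4 in WT). Ctsd was unevenly distributed. It was past 1.5-fold in C03 (9.38 CP10K in S303/7A, 5.26 in WT, log2 ratio 0.82), in C05 (6.30 in S303/7A, 3.61 in WT, 0.79) and in C09 (9.09 in S303/7A, 4.91 in WT, 0.88), but not in C02 (2.10 in S303/7A, 1.73 in WT, 0.26) or C13 (5.36 in S303/7A, 4.89 in WT, 0.13). Whether these ratios differ between clusters was not tested.

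Of the measured members, 2 of 8 were past the fold in C03 (4.60% of all genes), 1 of 9 in C05 (4.42%), 3 of 10 in C09 (23.4%), 1 of 8 in C13 (4.45%) and 0 of 8 in C02 (8.04%). Besides Ctsd and Ctsc these were Ctsl in C03, at 2.74 CP10K in S303/7A and 1.71 CP10K in WT, and Ctsk in C09. In C09 Ctsk counted as measured only through S303/7A (0.916 CP10K, against 0.0748 in WT). All 33 Ctsk UMIs of S303/7A in C09 came from 1 cell, so the count of 3 depends on that cell. Ctsb was 13.6 CP10K in S303/7A and 9.47 CP10K in WT in C05 (log2 ratio 0.51), and Ctss was 17.9 (S303/7A) and 26.7 CP10K (WT) in C09 (-0.58).

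Other genes moved with these differences in macrophages. The summed level of 10 macrophage markers was 279 CP10K in S303/7A and 150 CP10K in WT, led by Apoe at 123 (S303/7A) and 38.8 CP10K (WT), and that of 4 monocyte markers was 12.5 CP10K in S303/7A and 50.5 CP10K in WT, with none of either list at 0. The mix of clusters differed too, since C03 held 26.2% of S303/7A and 18.9% of WT macrophages and C02 held 25.3% of S303/7A and 35.4% of WT macrophages. With the 5 clusters weighted equally the log2 ratio was 0.65 for Ctsd and -0.58 for Ctsc. The part of the marker shift in these differences was not tested.

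**Figure D4:**
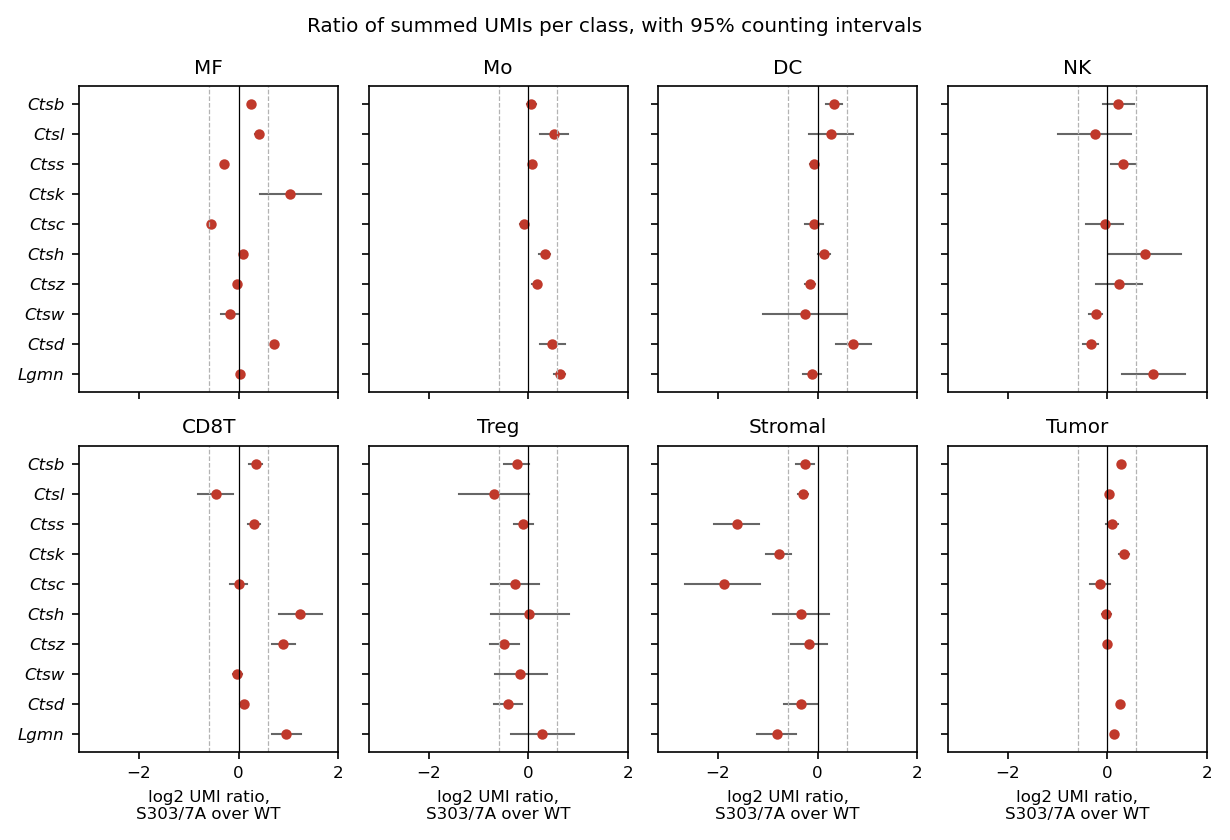
Ratio of summed UMIs, S303/7A over WT, on a log2 axis, for each measured member in 8 classes, with exact conditional 95% intervals that cover counting error only and dashed lines at 1.5-fold. Members not measured in a class, or with 3 or fewer UMIs in a library, are left out. Ctsd and Ctsc stand on opposite sides in MF, and the Tumor points lie near 0.

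Ctsk in macrophages rested on single cells. It was 0.120 CP10K in S303/7A and 0.0322 CP10K in WT, from 141 UMIs in S303/7A and 28 UMIs in WT (log2 ratio 0.73, UMI ratio 2.03, interval 1.35 to 3.17). Of the S303/7A UMIs, 81 came from 1 cell of cluster C03 and 33 from 1 cell of C09, which was the only one of 209 C09 cells with a Ctsk UMI. That C09 cell also had 168 CP10K of Acp5 and 261 CP10K of Mmp9, both osteoclast genes, against 1.29 CP10K of Acp5 and 0 CP10K of Mmp9 in the other 208 S303/7A cells of C09. Without the 2 cells of most Ctsk UMIs in each library, a step chosen after seeing the data, Ctsk was 0.00899 CP10K in S303/7A and 0.0237 CP10K in WT, and its log2 ratio turned to -0.18.

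The other lysosomal genes gave the setting for the members in macrophages. Of 8 measured further lysosomal proteases 0 were past 1.5-fold, and their median log2 ratio was 0.25, with Ctsf at 0.40 and Ctsa at 0.37. Among 36 lysosomal hydrolases and membrane proteins, Npc2 (a cholesterol carrier) was lower at 13.9 (S303/7A) and 21.4 CP10K (WT). Their median was 0.16, with 27 of 36 above 0, against 0.02 for all genes. Of 15 proton pump subunits only Atp6v0a1 was past the fold (log2 ratio 0.61), with Atp6v1g1 next in size at -0.29, and the list's median was -0.03.

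The partners of the cathepsins were mostly even in macrophages. Of 8 class II processing genes H2-DMb2 was past the fold (0.686 CP10K in S303/7A, 0.329 in WT), H2-Eb1 was 48.7 (S303/7A) and 57.0 CP10K (WT) (log2 ratio -0.22), and the median was -0.03. The cystatin gene Cst3, a secreted inhibitor of cysteine cathepsins, was 30.5 CP10K in S303/7A and 25.7 CP10K in WT (0.25), and the intracellular inhibitor Cstb was 5.74 (S303/7A) and 5.95 CP10K (WT) (-0.05), with 0 of 3 measured inhibitors past the fold. Of 4 measured sorting genes 0 were past it, with Nagpa at 0.26 and M6pr at -0.14. None of 4 measured lysosome transcription factors was past it, with Tfeb at 0.21 and Tfe3 at 0.20 and a list median of 0.16.

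In monocytes, 0 of 8 measured members were past the fold, while 10.5% of 6511 genes were. The largest member ratios were Lgmn, at 5.89 CP10K in S303/7A and 4.04 CP10K in WT (log2 ratio 0.53, UMI ratio 1.55, interval 1.43 to 1.68), and Ctsd, at 1.34 (S303/7A) and 0.905 CP10K (WT) (0.51, UMI ratio 1.40, interval 1.18 to 1.67). Ctsl (0.42) and Ctsh (0.32) were also above 0, and 7 of 8 members were, with a median of 0.22 against 0.06 for all genes. Ctsc (-0.15) was the 1 measured member below 0, and Ctss was even, at 42.7 CP10K in S303/7A and 41.5 CP10K in WT.

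Class II genes were higher in the S303/7A monocytes, with 5 of 8 past 1.5-fold: H2-DMb2 (log2 ratio 1.11), H2-Ab1 (0.79), H2-Eb1 (0.78), H2-Aa (0.73) and Cd74 (0.68). H2-Ab1 was 76.6 CP10K in S303/7A and 44.2 CP10K in WT. Of 30 measured hydrolases and membrane proteins, 6 were higher, among them Asah1 (0.99), and 2 were lower, Gla (-0.79) and Npc2 (-0.69). Of the other lists Tpp1 was at 0.57 and Ctsa at 0.58 among proteases, Cst7 was past the fold at -0.68 with Cstb at -0.38, Nagpa was past it at 0.97 with Gnptab at -0.18, Tfec was past it at -0.77 with Tfeb at 0.46, and Atp6v1e1 (-0.50) and Atp6ap1 (0.44) led the proton pump. The marker shift was present here as well, with 4 monocyte markers at 118 CP10K in S303/7A and 209 CP10K in WT and 10 macrophage markers at 98.2 (S303/7A) and 60.2 CP10K (WT), and its part was not tested.

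In dendritic cells, 0 of 9 measured members were past the fold (6.93% of 7067 genes were). Inside the class, the small cluster C20, with 35 S303/7A and 27 WT cells, had 4 of 8 members past it, all higher (11.6% of its genes were higher): Ctsb at 3.60 CP10K in S303/7A and 1.37 CP10K in WT, Lgmn at 2.05 (S303/7A) and 0.599 CP10K (WT), Ctss at 8.18 (S303/7A) and 5.11 CP10K (WT), and Ctsd at 0.790 (S303/7A) and 0.0968 CP10K (WT). Of these 4 members, Ctsd counted as measured only through S303/7A, since it was below 0.1 CP10K in WT. Markers of other cells moved with them in C20, where 10 macrophage markers summed to 62.4 CP10K in S303/7A and 8.93 CP10K in WT and 4 monocyte markers to 3.91 (S303/7A) and 22.3 CP10K (WT), with none at 0, and their part was not tested. Cluster C17 had Lgmn at 2.63 CP10K in S303/7A and 4.38 CP10K in WT and Ctsl at 0.343 (S303/7A) and 0.600 CP10K (WT), 2 of 9 members lower where 13.9% of genes were. In pDC, Ctsd was 2.90 CP10K in 32 S303/7A cells and 1.30 CP10K in 33 WT cells (log2 ratio 1.10), the 1 of 9 members past the fold where 39.5% of genes were past it. Macrophage markers in pDC summed to 70.5 CP10K in S303/7A and 33.2 CP10K in WT, and their part was not tested. In the neutrophil-like cluster C18, with 41 S303/7A and 39 WT cells, 65.9% of genes were past the fold, and the 5 of 9 members past it are read against that. Among those 5, Ctsw counted as measured only through WT (0.109 CP10K, against 0.0141 in S303/7A).

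In CD8T cells, 3 of 9 measured members were past the fold, all higher in S303/7A, where 1.78% of 7014 genes were higher and 3.86% were past the fold either way. They were Ctsh at 0.310 CP10K in S303/7A and 0.139 CP10K in WT (UMI ratio 2.36, interval 1.75 to 3.20), Ctsz at 0.863 (S303/7A) and 0.470 CP10K (WT) (1.86, 1.58 to 2.18), and Lgmn at 0.521 (S303/7A) and 0.307 CP10K (WT) (1.94, 1.58 to 2.39). Other members at higher levels in macrophages than in CD8T cells did not pass the fold: the log2 ratio was 0.30 for Ctsb, 0.26 for Ctss, 0.04 for Ctsc and -0.33 for Ctsl. The 2 clusters of the class differed in share, since C06 held 71.5% of S303/7A and 55.8% of WT CD8T cells and C11 held 28.5% of S303/7A and 44.2% of WT CD8T cells. Within C06 the log2 ratio was 0.87 for Ctsh, 0.76 for Ctsz and 0.46 for Lgmn, and within C11 it was 0.36 for Ctsh, 0.67 for Ctsz and 0.80 for Lgmn. Macrophage marker RNA moved with them: the 10 markers summed to 12.9 CP10K in S303/7A and 5.61 CP10K in WT CD8T cells, with none at 0.

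Set against the macrophage level in the same library, Ctsh stood at 4.93% in S303/7A and 2.35% in WT CD8T cells, and Lgmn at 4.10% in S303/7A and 2.43% in WT. The macrophage markers stood at a median of 4.66% (range 2.29% to 8.86%) in S303/7A and 3.63% (1.21% to 4.52%) in WT, so both genes lay inside the markers' range in both libraries. Ctsz, at 10.1% in S303/7A and 5.48% in WT, lay above it in both, as did Ctsb (14.1% in S303/7A, 14.1% in WT), Ctsc (10.99% in S303/7A, 7.27% in WT), Ctss (9.55% in S303/7A, 6.33% in WT) and Ctsl (11.03% in S303/7A, 19.3% in WT). Ctsd, at 85.2% in S303/7A and 141% in WT, and Ctsw, at 1812% in S303/7A and 1844% in WT, lay far above. The part of macrophage RNA in the 3 differences was not tested.

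**Figure D5:**
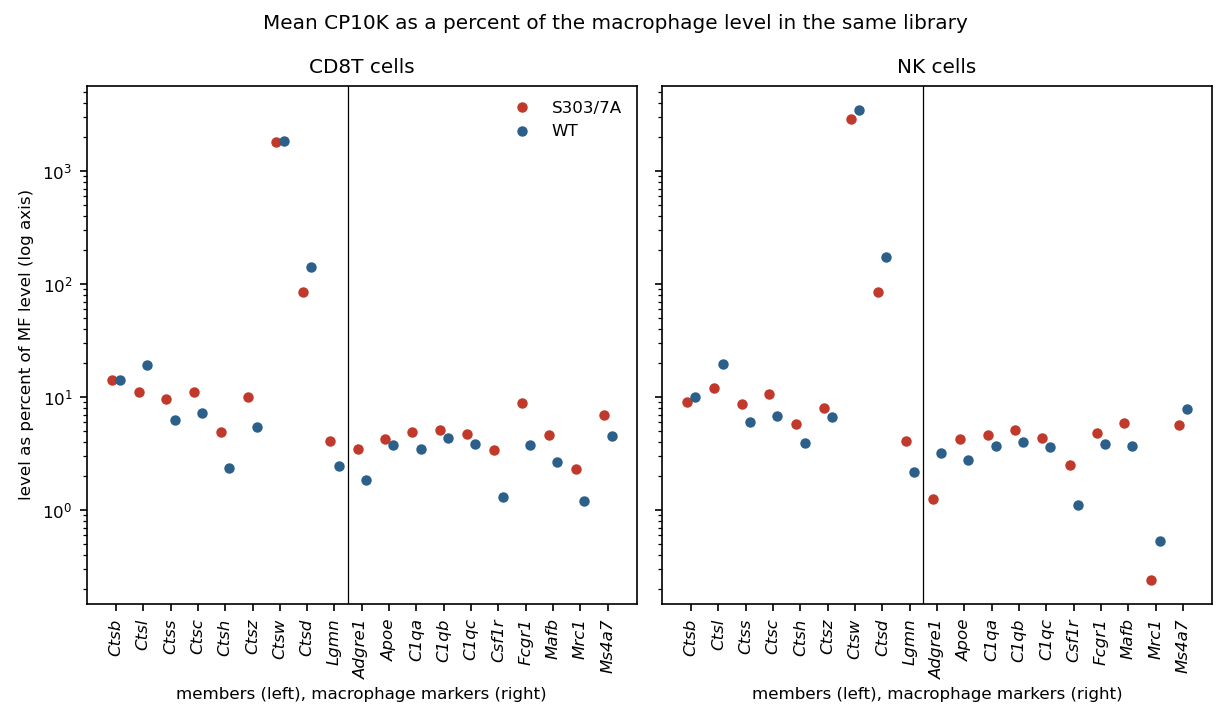
Level of the members other than Ctsk (left of the line) and of macrophage markers (right of it) in CD8T and NK cells as a percent of the macrophage level of the same library, on a log axis, with S303/7A (red) left of WT (blue). Ctsd and Ctsw stand above all markers, and Lgmn and Ctsh lie among them in CD8T cells.

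In NK cells, the 1 of 9 measured members past the fold was Lgmn, higher at 0.520 CP10K in S303/7A and 0.272 CP10K in WT, from 60 UMIs in S303/7A and 36 UMIs in WT (UMI ratio 1.90, interval 1.23 to 2.95), where 3.98% of 7113 genes were higher and 9.87% were past the fold either way. Lgmn stood at 4.09% of the macrophage level in S303/7A and 2.16% in WT, inside the range of the macrophage markers (0.240% to 5.91% in S303/7A, 0.536% to 7.84% in WT). The 2 abundant members were slightly lower: Ctsw at 7.16 CP10K in S303/7A and 8.60 CP10K in WT (UMI ratio 0.852, interval 0.779 to 0.931), and Ctsd at 5.25 (S303/7A) and 6.27 CP10K (WT) (0.795, 0.715 to 0.884). Ctsc was even, at 1.04 (S303/7A) and 0.983 CP10K (WT), while 4 of the 8 measured granule proteases it is known to activate were lower: Gzma at 41.5 (S303/7A) and 70.2 CP10K (WT), Gzmb at 23.6 (S303/7A) and 40.5 CP10K (WT), Gzmf at 0.272 (S303/7A) and 3.92 CP10K (WT) and Cma1 at 0.233 (S303/7A) and 0.752 CP10K (WT). Markers moved in NK cells too. The 5 NK markers, Gzma among them, summed to 57.6 CP10K in S303/7A and 87.1 CP10K in WT. The 10 macrophage markers summed to 12.35 (S303/7A) and 5.38 CP10K (WT), and the part of these markers was not tested.

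In Tregs 0 of 9 measured members were past the fold, where 20.1% of 7945 genes were. Ctsd was 2.41 CP10K in S303/7A and 3.58 CP10K in WT (UMI ratio 0.757, interval 0.622 to 0.923), and Ctsz was 2.14 (S303/7A) and 2.74 CP10K (WT) (0.716, 0.585 to 0.876). In tumor cells 0 of 9 were past it as well, where 2.32% of 7421 genes were, and the counting intervals are narrow there: the UMI ratio was 1.03 for Ctsl (1.02 to 1.05), 1.22 for Ctsb (1.20 to 1.24), 1.20 for Ctsd (1.16 to 1.25) and 1.27 for Ctsk (1.18 to 1.36). The mix of tumor clusters differed, with C04 holding 14.2% of S303/7A and 33.4% of WT and C08 holding 29.8% of S303/7A and 16.8% of WT tumor cells. Within clusters C01, C04, C08 and C14 the UMI ratio of Ctsb was 1.03, 1.00, 1.07 and 1.35, and that of Ctsk was 0.935, 1.27, 1.03 and 1.84.

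In the Stromal class, 4 of 10 members were past the fold, all lower in S303/7A, where 23.9% of 7417 genes were lower and 36.5% were past the fold either way. Ctsk was 1.39 CP10K in S303/7A and 2.57 CP10K in WT (UMI ratio 0.581, interval 0.489 to 0.690), and Lgmn was 0.6997 (S303/7A) and 1.13 CP10K (WT) (0.566, 0.428 to 0.743). Ctsc was 0.320 CP10K in S303/7A and 0.624 CP10K in WT, and Ctsw had 1 UMI in S303/7A and 12 in WT (ratio 0.0865, interval 0.00202 to 0.584). Ctsw counted as measured only through WT (0.145 CP10K, against 0.00392 in S303/7A), so the count of 4 depends on a gene at very few UMIs. Ctsl, the main member here, was 10.1 CP10K in S303/7A and 15.03 CP10K in WT (log2 ratio -0.57).

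Few Stromal cells made the Ctsk level. A Ctsk UMI was found in 10 of 138 S303/7A cells and in 16 of 163 WT cells, and 1 S303/7A cell gave 197 of the 213 UMIs, where the highest WT cell gave 85 of 380. Without the cell of most Ctsk UMIs in each library, a step chosen after seeing the data, Ctsk was 0.101 CP10K in S303/7A and 2.26 CP10K in WT, from 16 UMIs in S303/7A and 295 UMIs in WT. In S303/7A the 10 cells with Ctsk had 32.4 CP10K of Ctsl against 8.39 CP10K in the other 128 cells, and in WT the 16 cells had 19.05 CP10K against 14.6 CP10K in 147. Macrophage markers in Stromal cells had a median of 1.61% of the macrophage level in S303/7A and 4.27% in WT, and their part in the Lgmn and Ctsc values was not tested. Other markers moved in this class too: 3 endothelial markers summed to 1.09 CP10K in S303/7A and 0.503 CP10K in WT, and 4 mast cell markers to 0.0195 (S303/7A) and 1.49 CP10K (WT), with 2 of them at 0 in S303/7A. The endothelial genes Pecam1, Cdh5 and Kdr had 0 UMIs in the 10 S303/7A cells with Ctsk, and the part of these markers was not tested.

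Ctsw, the lymphocyte member, was also found in macrophage cluster C05. The level there was 0.842 CP10K in S303/7A and 1.04 CP10K in WT, and the other 4 macrophage clusters had at most 0.166 CP10K in S303/7A and 0.191 CP10K in WT. A Ctsw UMI was found in 316 of 527 S303/7A cells and in 172 of 362 WT cells. T cell genes were there as well, with Trac at 2.34 CP10K in S303/7A and 2.23 CP10K in WT, against 8.92 (S303/7A) and 8.59 CP10K (WT) in CD8T cells.

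The amount of Ctsw per Trac UMI was 0.360 in S303/7A and 0.458 in WT cells of C05. In CD8T cells it was 0.490 (S303/7A) and 0.502 (WT). In NK cells it was 9.41 (S303/7A) and 10.8 (WT), over only 92 (S303/7A) and 107 Trac UMIs (WT). Trac in S303/7A cells of C05 was 2.29 CP10K in those with Ctsw and 2.42 CP10K in those without. In WT cells of C05 it was 2.48 CP10K with Ctsw and 2.002 CP10K without. The T cell gene Cd8a was 2.34 (with) and 1.07 CP10K (without) in S303/7A, and 2.68 (with) and 1.28 CP10K (without) in WT. The source of Ctsw in C05 was not tested. The macrophage gene C1qa was 37.5 CP10K in S303/7A cells of C05 with Ctsw and 39.5 CP10K in those without, and it was 22.4 CP10K in WT cells with Ctsw and 24.5 CP10K in those without. Among the cells with the highest doublet scores of each library (Scrublet), C05 cells were frequent: 26.0% of its S303/7A and 51.7% of its WT cells were among them, against 2.28% of S303/7A and 1.57% of WT cells in C02. In the pDC cluster (C19) the shares were 12.5% of S303/7A and 27.3% of WT cells. Without the cells of highest score Ctsw in C05 was 0.812 CP10K in S303/7A and 0.747 CP10K in WT. Leaving C05 out, chosen after seeing the data, gave log2 ratios in macrophages of 0.76 for Ctsd and -0.53 for Ctsc.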

How the data were processed

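Single-cell RNA was measured in 1 library per genotype. Expression was deposited by the authors on a natural log scale, as ln(1 + UMIs per 100000 UMIs of the cell), which was inferred from the values. Each cell also has deposited counts of its UMIs and detected genes, and a deposited percent of mitochondrial UMIs. Per the submitters' processing notes, Cell Ranger, Seurat 3.0, mm10 and GRCm38 were used. How cells were filtered and clustered is not given in the sources used. Groups were taken from the labels' genotype, and clusters and classes from the deposited annotation.

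UMI counts were recovered by undoing the log and scaling to each cell's UMIs. Of the values above 0, 99.9% came out whole to within 0.1 UMI, and detected genes matched in 11456 of 11456 cells. With 1 library per genotype no test of the genotypes was possible. Ratios and intervals were checked on simulated data (Python 3.11.15, numpy 2.4.6, scipy 1.17.1, pandas 2.3.3). The simulation drew Poisson counts from a pooled macrophage profile and changed only genes at higher levels than Ctsk and Ctsw have there. It therefore does not cover rare genes, mixed clusters or UMIs concentrated in single cells. Scrublet (scanpy 1.11.5) with its automatic threshold marked 0.0833% of S303/7A and 0.827% of WT cells, so it did not work for the S303/7A library. The 215 S303/7A and 361 WT cells of highest score, at assumed doublet rates of 3.84% and 5.32% that scale with the number of cells, were left out as an alternative only.

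Genes named are the 10 members in each class and cluster described, the 3 genes most like each member over the clusters, and from each other lysosomal or granule list the 2 largest absolute ratios in macrophages and monocytes and genes of a count of 5 or fewer. A gene that this rule names is not reported here. Genes named Gm or Rik were left out of the likeness search. The members and all lists were chosen with earlier results of these data known. The alternatives were pseudocounts of 1 and 0.01 CP10K, summed UMIs, cells thinned to 1000 UMIs (63 S303/7A and 199 WT cells were shallower), no filter on low values, centring on the median gene, clusters weighted equally, and leaving out the shallowest 10% of cells or the highest Scrublet scores.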

Additional observations from a re-analysis of the deposited data

Results flagged for a closer look

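For 2 members the ratio was past 1.5-fold in opposite directions in different classes, and none of these contrasts between classes was tested. Ctsk had a log2 ratio of S303/7A over WT of 0.732 in macrophages, against -0.84 in the Stromal class. In macrophages 81 and 33 of the 141 S303/7A UMIs came from 1 cell each, and in the Stromal class 197 of the 213 S303/7A UMIs came from 1 cell. Lgmn had a log2 ratio of 0.735 in NK cells and of 0.61 in CD8T cells, against -0.62 in the Stromal class. Lgmn stood at 4.09% of the macrophage level in S303/7A and 2.16% in WT NK cells, at 4.10% in S303/7A and 2.43% in WT CD8T cells, and at 5.51% in S303/7A and 8.94% in WT Stromal cells. The median of the macrophage markers stood at 4.49% in S303/7A and 3.66% in WT NK cells, at 4.66% in S303/7A and 3.63% in WT CD8T cells, and at 1.61% in S303/7A and 4.27% in WT Stromal cells, and its part in these differences was not tested. Other members also lay on opposite sides of 1 without passing the fold both ways: Ctsd had a UMI ratio of 1.64 in macrophages against 0.795 in NK cells and 0.757 in Tregs, and Ctsz had 1.86 in CD8T cells against 0.716 in Tregs.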

How the results depend on the processing

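With 1 library per genotype, no setting bears on the spread between animals, and depth limits low members in thin clusters. No paired analysis was possible because each genotype has 1 library and the labels give no replicate numbers. Over its alternatives the log2 ratio in macrophages ranged from 0.64 to 0.92 for Ctsd, from -0.59 to -0.46 for Ctsc, from -0.35 to -0.08 for Ctss, and from -0.86 (5000 to 15000 UMIs) to 0.45 (without the highest Scrublet scores) for Ctsw. Ctsc reached 1.5-fold only without the highest Scrublet scores.

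Among ratios past 1.5-fold, directions turned for Ctsk in macrophages without its 2 top cells per library (-0.18) and at 5000 to 15000 UMIs (-0.17), which leaves out deep cells. After thinning to 1000 UMIs they turned for Ctsl in C17 (0.0394) and C18 (-1.32) and for Ctsz in C18 (-0.0594), where few UMIs are left. Of 212 ratios short of the fold by class or cluster, 71 changed sign under a setting, and 11 then lay past the fold on the other side, 10 of them in thinned cells, among them Ctsh in Stromal cells, which are all C15 (0.51 to -1.60) and Ctsl in C11 (-0.11 to 1.22). Monocytes, NK cells, Tregs and Stromal cells are each a single cluster, so their ratios enter these counts both as class and as cluster. Without its top cell per library Ctsk in Stromal cells moved to -3.55. Leaving out top cells, the depth range and leaving out C05 or C09 were chosen after seeing the data.

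The count of genes past 1.5-fold depended on the pseudocount by construction. With 1 CP10K it was 60 in macrophages (328 with 0.1 CP10K), 77 in monocytes (684), 48 in DC (490), 24 in NK (702), 34 in CD8T (271), 31 in Treg (1599), 66 in Stromal (2704) and 16 in Tumor cells (172). With 0.01 CP10K it was 652 in macrophages, 1437 in monocytes, 1231 in DC, 1552 in NK, 678 in CD8T, 2594 in Treg and 371 in Tumor cells. Thinned cells gave 509 in macrophages, 2143 in monocytes, 2764 in DC, 2538 in NK, 1113 in CD8T, 2834 in Treg and 513 in Tumor cells. Summed UMIs gave 465 in NK, 862 in Treg and 1370 in Stromal cells, and equal weights for clusters gave 70 in Tumor cells.

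Counts of members past the fold changed as follows. With 1 CP10K added they were 1 in macrophages and 0 in NK, CD8T and Stromal cells, and with 0.01 CP10K they were 2 in NK and 1 in Treg. With summed UMIs they were 1 in macrophages, 1 in monocytes and 1 in DC, and with clusters weighted equally 1 in DC. Thinned cells gave 1 in monocytes, 3 in DC, 2 in Treg, 8 in Stromal and 1 in Tumor cells. Without the shallowest 10% of cells the count was 1 in macrophages and 1 in Treg, and without the highest Scrublet scores 1 in Treg. The cause of these changes was not tested.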

Other observations

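In CD8T cells the measured granule proteases that Ctsc is known to activate went in both directions while Ctsc itself was even, at 1.07 CP10K in S303/7A and 1.04 CP10K in WT. Gzma (0.576 CP10K in S303/7A, 3.62 in WT), Gzmb (6.60 in S303/7A, 13.3 in WT) and Gzmk (0.358 in S303/7A, 0.902 in WT) were lower past 1.5-fold. Gzmd (0.590 in S303/7A, 0.237 in WT), Gzme (0.578 in S303/7A, 0.242 in WT) and Gzmf (1.46 in S303/7A, 0.626 in WT) were higher past that fold. These genes lie in families of similar sequence, so reads may have been shared among them. In macrophages, where the list's members are at low levels, Gzma was 0.259 CP10K in S303/7A and 0.681 CP10K in WT, and Gzmb was 0.797 in S303/7A and 1.33 in WT. In monocytes Gzmb was 0.0695 CP10K in S303/7A and 0.163 CP10K in WT, and Prtn3 was 0.156 in S303/7A and 0.0940 in WT.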
